A study of Arabidopsis thaliana with 4 samples.

Results

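Cytochrome P450 genes were followed in root tips of Arabidopsis thaliana as the probe sets that the platform annotation pairs with exactly 1 gene and whose symbol is CYP, 2 or 3 digits and a letter. The rule found 23 genes, each with 1 probe set, among 13356 genes that have a probe set of their own. Of these, 19 belong to the CYP71B subfamily and the other 4 are CYP51G2, CYP78A9, CYP79A2 and CYP84A4. In RefSeq's gene table (assembly TAIR10.1), 253 genes are listed as cytochrome P450s, so the 23 are a small part of the family and are mostly CYP71B genes. Each genotype, wild type and sol2, was measured on 2 arrays; sol2 carries a mutation in SOL2 (CORYNE), a membrane-bound receptor-like kinase of CLE peptide signalling. All seedlings were 4 days old, had been grown on MS medium at 23 °C in continuous light and had received no other treatment that the labels name. The question addressed is which genes differ in root tips when this kinase is mutated. The labels do not give the accession of either genotype or the sol2 allele, and they do not say whether the replicates came from separate cultures, so that p-values measure only how far these arrays differ, and that may be technical.

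Plant cytochrome P450s are haem enzymes, most of them anchored in the endoplasmic reticulum, which insert 1 atom of molecular oxygen into a substrate with electrons from a P450 reductase. They act in the synthesis and breakdown of hormones, sterols, lignin precursors, fatty acid polymers and defence compounds. CYP71B is a large subfamily that lies mostly in tandem arrays of neighbouring genes, and the substrates of many of its enzymes are not known. Its best known member, PAD3, makes the indole phytoalexin camalexin. PAD3 is not among the 23 genes.

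All 4 arrays were on 1 scale, with median signals between 142.7 and 160.75. The wild type arrays differed more from each other than the sol2 arrays did, with a median absolute log2 difference over the 13648 tested probe sets of 0.294 against 0.182. The 3′ to 5′ signal ratio of an actin control, a measure of RNA integrity, was 8.45 and 24.5 on wild type replicates 1 and 2 and 11.6 and 36.9 on sol2 replicates 1 and 2. A second actin pair gave 1.81 and 2.3 against 1.72 and 2.81, ubiquitin 3.02 and 3.87 against 2.46 and 2.29, and GAPDH 0.971 to 1.07 on all arrays. The part of RNA integrity in the results below was not tested. Of 8 phloem markers, 1 was measured, SWEET11, at 504.7 and 330.5 on the wild type arrays against 63.8 and 29.9 on those of sol2. SWEET11 was called lower in sol2 (adjusted p = 0.00782, limma). Its sol2 mean alone (5.98 on the log2 scale) was below the signal filter described below. It was thus tested only through its wild type signal, and without the filter it was not called (adjusted p = 0.0725, limma). Of 11 meristem and quiescent centre markers 2 were measured, JKD at 143 to 183.5 on all arrays and AGL42 at 16.2 and 26.7 in wild type against 202.6 and 302 in sol2. AGL42 was called higher in sol2 (adjusted p = 0.00486, limma) and JKD was not called. Both wild type signals of AGL42 lay under the highest bacterial control signal, 34.1. Its wild type mean alone (5.30 on the log2 scale) was below the filter, so that AGL42 was tested only through its sol2 signal. Without the filter AGL42 was not called (adjusted p = 0.0545, limma). Of 8 green tissue markers 2 were measured and neither was called, with summed signals of 365.4 and 383.2 in wild type against 254.9 and 242.1 in sol2; RCA did not overlap between genotypes and PSBW did. The 1 xylem marker measured of 8, GUT2, had 448.1 and 317.4 against 412 and 389.8. The 2 of 9 root hair markers that were measured summed to 3330.5 and 2949.8 against 2832.8 and 2376.3, and neither was called. No listed root cap or endodermis marker had a named probe set. In whole root tips, fewer cells of a type and less RNA per cell cannot be told apart, and the part of these marker differences in the results below was not tested.

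One CYP71B gene rose and another fell in sol2. CYP71B26 rose from wild type signals near those of bacterial control probe sets, and CYP71B23 fell to 0.254 of its wild type mean. A probe set was called when its adjusted p (limma, Benjamini-Hochberg over all tested probe sets) was under 0.05, and only probe sets with a mean log2(signal + 18.4) of at least 6.62 over the 4 arrays were tested. Of the 23 genes 7 passed this filter and 2 of them were called, 1 in each direction, where 1.25% of all 13648 tested probe sets were called (0.945% higher and 0.3% lower). Without the filter none of the 23 was called by limma, 5 had an unadjusted p under 0.05, as had 8.83% of all 22746 probe sets, and 0.303% of all were called. With the filter CYP71B26, CYP71B23 and CYP71B37 had an unadjusted p under 0.05, as had 8.9% of all tested probe sets. The first and the last of these passed the filter only through the genotype in which they were high, so nothing is read from their number. The remaining 5 tested genes were CYP71B6, CYP71B34, CYP71B37, CYP78A9 and CYP84A4. The median log2 difference of the 7 tested genes was 0.07, beside 0.004 for all tested probe sets.

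**Figure D1:**
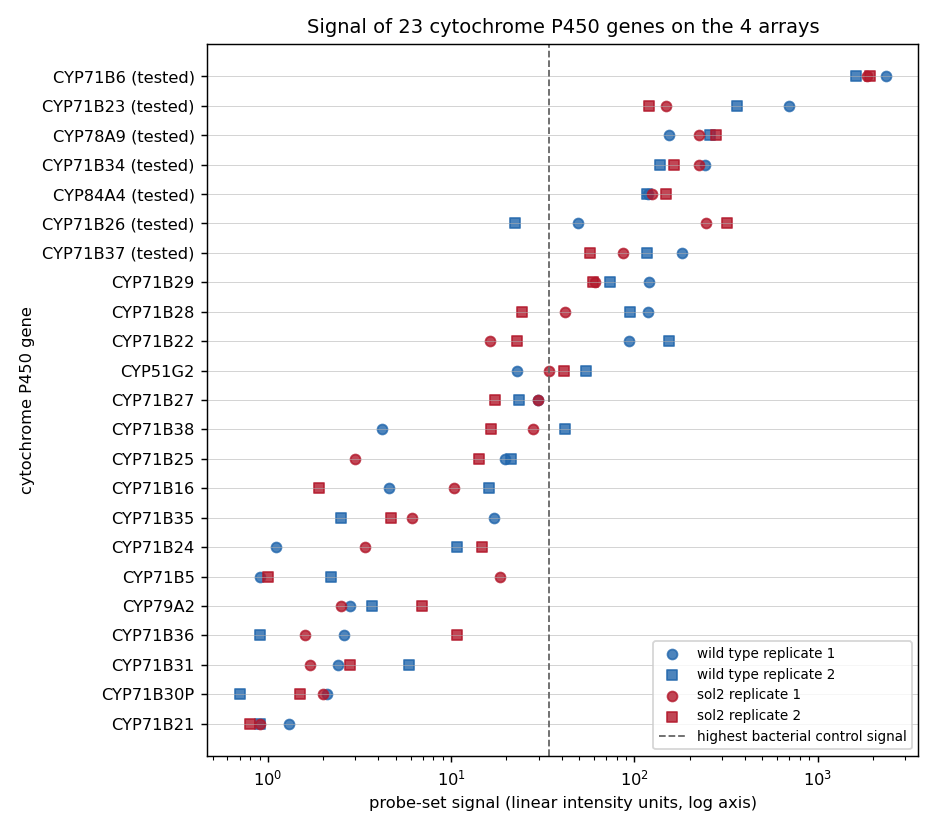
Probe-set signal of the 23 genes on each of the 4 arrays (log axis, linear intensity units), wild type in blue and sol2 in red, with circles for replicate 1 and squares for replicate 2. The dashed line is the highest signal of the bacterial control probe sets, 34.1; 11 genes lay at or under it on all 4 arrays, and CYP71B26 is the gene whose sol2 signals stand farthest to the right of its wild type signals.

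CYP71B26 (AT3G26290) had signals of 49.3 and 22.2 on wild type replicates 1 and 2 and of 247.3 and 322.2 on sol2 replicates 1 and 2. Both sol2 arrays were above both wild type arrays, and wild type replicate 2 lay within the range of 27 control probe sets for bacterial transcripts, whose highest signal was 34.1. The mean rose from 35.8 ± 19.2 to 285 ± 53.0 (SD, n = 2), a log2 difference of 2.52 ± 0.31 (SE, adjusted p = 0.00934, limma) with a 95% interval from 1.80 to 3.25. Set against each wild type array in turn, the sol2 signals gave ratios from 5.02 to 14.5. With wild type signals under 34.1 set to 34.1, the ratio of means, sol2 over wild type, was at least 6.83. On the log2 scale the rise was the 30th largest among the 13648 tested probe sets. The wild type mean alone (5.71 on the log2 scale) was below the filter, so that CYP71B26 was tested only through its sol2 signal.

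CYP71B23 (AT3G26210) had signals of 695 and 364.1 on wild type replicates 1 and 2 and of 148.2 and 120.3 on sol2 replicates 1 and 2. Both sol2 arrays were below both wild type arrays and all 4 were above the control range. The mean fell from 530 ± 234 to 134 ± 19.7 (SD, n = 2), a log2 difference of -1.78 ± 0.32 (SE, adjusted p = 0.0453, limma) with a 95% interval from -2.51 to -1.05. Wild type exceeded sol2 by 2.46-fold to 5.78-fold across the 4 possible pairs. It was the 21st largest fall on the log2 scale. The call was close to the threshold and ended with quantile normalization (adjusted p = 0.0736), with equal array medians (0.0617), with the 60th-percentile filter (0.0737), with a prior variance without trend (0.0623) and without a filter (0.174). It held with both other pseudocounts and with a replicate block. The block also raised the calls over all tested probe sets, from 129 higher and 41 lower to 660 and 462. With an array left out, the lone array of a genotype took its spread from the other genotype, so only the size is given. Leaving out wild type replicate 2 gave a log2 difference of -2.23, and leaving out wild type replicate 1 gave -1.33.

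CYP71B37 (AT3G26330) had signals of 181.8 and 116.5 in wild type against 86.4 and 56.9 in sol2, so the genotypes did not overlap. Its log2 difference of -0.89 ± 0.30 did not pass (adjusted p = 0.353, limma; 95% interval from -1.59 to -0.19). Its sol2 mean alone (6.47 on the log2 scale) was below the filter, so that it was tested only through its wild type signal. With a replicate block, which raised the calls over all tested probe sets, the adjusted p was 0.0115 (limma). Without wild type replicate 2 the log2 difference was -1.17. CYP71B37 was the tested gene nearest to the filter on its upper side, with a mean log2 value of 6.92, and CYP71B29 was the nearest below it, at 6.56.

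**Figure D2:**
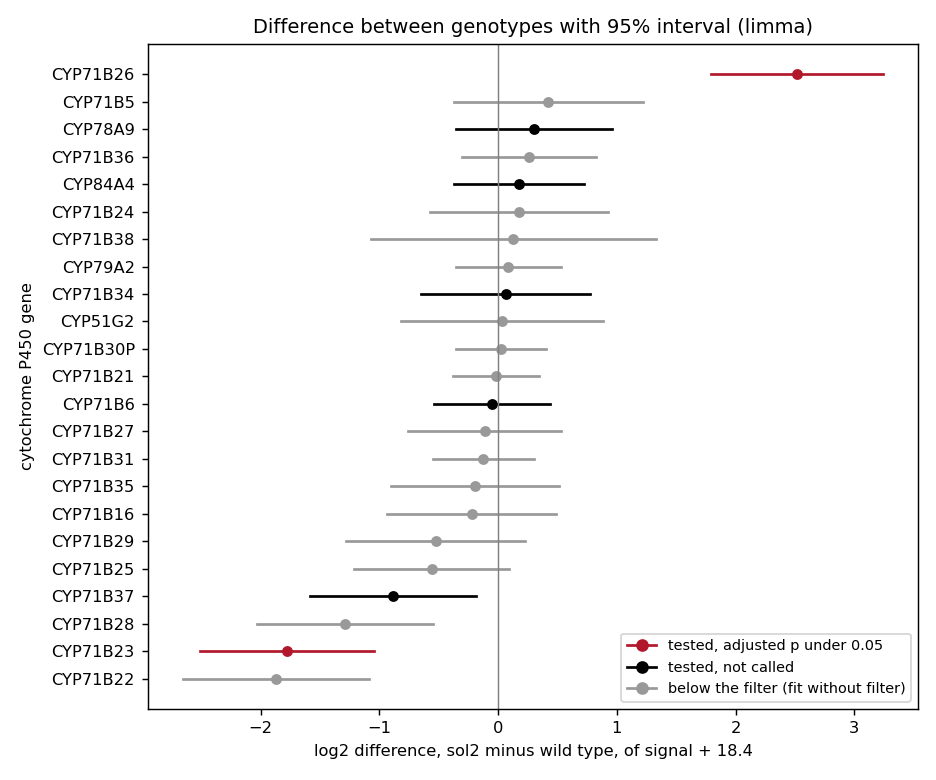
Log2 difference between sol2 and wild type, of signal + 18.4, for the 23 genes, ordered by size, with 95% intervals from limma. Red marks the 2 called genes, black the 5 tested genes that were not called and grey the 16 genes below the filter, whose values come from an unfiltered fit; the intervals of CYP71B26 on the right and of CYP71B23, CYP71B22, CYP71B28 and CYP71B37 on the left do not cross 0.

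CYP71B22, CYP71B28 and CYP71B29, just below the filter, also had lower signal on both sol2 arrays, and none of these 3 was called when the filter was dropped. CYP71B22 (AT3G26200) had 93.3 and 153.6 in wild type against 16.3 and 23 in sol2. Both sol2 signals lay within the control range, so the difference was at least 3.62-fold (log2 -1.87 ± 0.32, unadjusted p = 0.00131, adjusted p = 0.139, limma). The fitted value depended on the pseudocount, at -2.49 for the 5th percentile against -1.01 for the 40th. With a replicate block, a setting that raised the calls over all tested probe sets, its adjusted p was 0.0201 (limma). CYP71B28 (AT1G13090) had 118.8 and 94.1 in wild type against 41.8 and 24.4 in sol2, at least 2.81-fold lower (log2 -1.29 ± 0.30, unadjusted p = 0.00577, adjusted p = 0.246). It was -0.72 with the 40th-percentile pseudocount. CYP71B29 (AT1G13100) had 120.8 and 73.8 in wild type against 60.9 and 59.8 in sol2 (log2 -0.52 ± 0.30, adjusted p = 0.764), a difference smaller than that between its wild type arrays. Leaving out wild type replicate 2 gave -0.82 and leaving out wild type replicate 1 gave -0.23.

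Over all 23 genes, both sol2 arrays were below both wild type arrays for 6, all of them CYP71B genes, or 26.1%, where 19.2% of all 22746 probe sets were. Both sol2 arrays were above for 2, CYP71B26 and CYP84A4, where 17.1% of all probe sets were. The 15 others overlapped. The sixth gene with lower sol2 signals, CYP71B25, stood within the control range on all 4 arrays at 19.7 and 21.2 in wild type against 3 and 14.1 in sol2.

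The CYP71B genes lie in groups of neighbours, and the differences were compared along the gene order of the RefSeq table. On chromosome 3 a stretch of 24 annotated genes and pseudogenes from CYP71B16 to CYP71B37 held 18 P450 genes, of which 11 were measured. Of the 7 tested P450 genes 4 lie in this stretch, both called genes among them, so nothing is read from their shared position. CYP71B22 and CYP71B23 are next-door genes, and each had lower signal on both sol2 arrays. The ratio of means was at least 3.62 for CYP71B22, which was not called, and 3.94 for CYP71B23. The measured genes on either side of this pair, CYP71B21 and CYP71B24, had all signals within the control range (0.8 to 1.3 and 1.1 to 14.8). CYP71B26, farther along, rose, and the next measured genes were CYP71B25 before it and CYP71B34 after it. CYP71B34 had 242.8 and 137.6 in wild type against 226.2 and 164.2 in sol2 (log2 0.07 ± 0.31, adjusted p = 0.988, 95% interval from -0.65 to 0.78), and leaving out single arrays moved the value from -0.31 to 0.44. Toward the end of the stretch CYP71B35 and CYP71B36 were within the control range on all arrays. The last gene, CYP71B37, had lower signal on both sol2 arrays and was not called (log2 -0.89 ± 0.30, adjusted p = 0.353, limma). Of the 5 genes on each side of the stretch 4 were measured and 2 tested, and neither was called by limma, at log2 -0.12 and -0.03. Its 6 genes other than P450s had no named probe set. Close paralogs of this kind can share probe sequence, which was not analysed here, so each value is that of the probe set named for the gene.

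**Figure D3:**
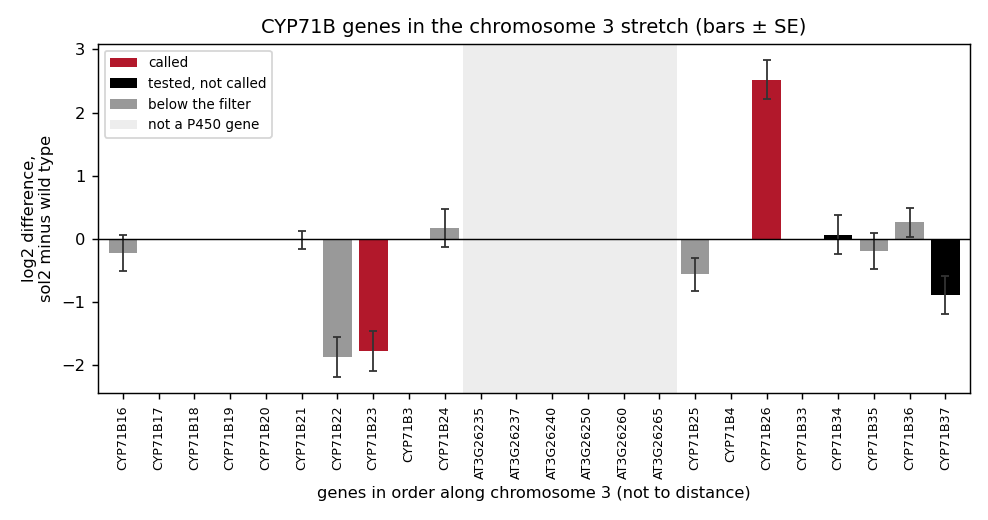
Log2 difference between sol2 and wild type (bars, ± SE) for the 11 measured CYP71B genes of the chromosome 3 stretch, with the 24 genes in order along the chromosome and not to distance. Positions without a bar had no probe set that the annotation pairs with them alone, except CYP71B21 at -0.02, and the shaded genes are not P450s. The fall of CYP71B23 and the rise of CYP71B26 were called, and the bar of CYP71B22, which was not, depends on the pseudocount.

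On chromosome 1 the neighbours CYP71B28 and CYP71B29 both had lower sol2 signals, as given above. CYP71B27, a transcribed pseudogene separated from CYP71B28 by 1 gene, had 29.7 and 23.5 in wild type against 29.8 and 17.3 in sol2, all within the control range. On the other part of chromosome 3, CYP71B5, CYP71B30P and CYP71B31, an enzyme of linalool oxidation in flowers, had signals of 0.7 to 18.5 and none was above the control range. CYP71B38, which lies apart from the other CYP71B genes, ranged from 4.2 to 41.6 within wild type and had 28.1 and 16.5 in sol2.

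Of 3 members with a known role in defence or phenylpropanoid metabolism, CYP71B6 and CYP84A4 were tested and not called, and CYP79A2 was below the filter. CYP71B6, which acts on indole-3-acetonitrile in the synthesis of indole carboxylates, had signals of 2368.2 and 1629.1 in wild type against 1866.1 and 1922.9 in sol2. The sol2 arrays lay between the wild type arrays (log2 -0.05 ± 0.21, adjusted p = 0.987, limma), and the 95% interval ran from -0.54 to 0.44. Leaving out single arrays moved the value from -0.32 to 0.22. CYP79A2, which converts phenylalanine to its oxime on the way to benzylglucosinolate, had signals of 2.5 to 6.9 on the 4 arrays, all within the control range. CYP84A4, a hydroxylase of the arabidopyrone branch of phenylpropanoid metabolism, had 119.3 and 117.4 in wild type against 124.2 and 148.9 in sol2. Both sol2 arrays were higher, but the difference was small (log2 0.18 ± 0.24, adjusted p = 0.949, 95% interval from -0.37 to 0.73).

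Of the members listed under organ growth and sterols, CYP78A9 was tested and not called, and CYP51G2 was below the filter. CYP78A9, of a subfamily that promotes organ and seed growth, had 153.9 and 258.3 in wild type against 226.7 and 278.4 in sol2 (log2 0.30 ± 0.28, adjusted p = 0.915, 95% interval from -0.35 to 0.96). Its genotypes overlapped, and the log2 difference changed sign with the wild type array used, from -0.04 for replicate 2 alone to 0.65 for replicate 1 alone. CYP51G2, a transcribed pseudogene in RefSeq named for its likeness to the sterol demethylase CYP51G1, had 22.8 and 54.5 in wild type against 34.3 and 41.2 in sol2 (log2 0.03, adjusted p = 0.991 with no filter). None of the listed P450s of hormone, cutin and suberin, root triterpene, carotenoid or iron-deficiency metabolism had a probe set paired with it alone, so those branches of the family were not analysed here.

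Among other genes of these pathways, 13 had a named probe set, 10 were tested and none was called by limma, where 1.25% of all tested probe sets were called. Only UGT78D2 of the 10 had an unadjusted p under 0.05 (limma), as had 8.9% of all tested probe sets, so nothing is read from this number. In the glucosinolate and camalexin list 3 genes were tested, and the largest differences were 0.23 for UGT74B1, the thiohydroximate glucosyltransferase, and 0.07 for the glutathione transferase GSTU20. In the phenylpropanoid and flavonoid list 4 were tested, among them the flavonoid glucosyltransferase UGT78D2 at -0.52 and the cinnamoyl-CoA reductase CCR2 at 0.46. CCR2 had signals of 340.4 and 130 in wild type against 322.3 and 277.6 in sol2, so its sol2 arrays lay between those of wild type. The gibberellin receptors GID1A and GID1C gave -0.45 and -0.23. No P450 reductase or cytochrome b5 gene of the list of redox partners had a named probe set.

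The 7 tested P450 genes also varied between replicates. The pair of wild type arrays differed by a median of 0.683 (absolute, log2) over these genes and the sol2 pair by 0.276, beside 0.294 and 0.182 for all tested probe sets. Over the same genes wild type replicate 2 differed from sol2 replicates 1 and 2 by 0.364 and 0.301, less than from wild type replicate 1. For wild type replicate 1 these values were 0.508 and 0.785. For 4 of the 7 (CYP71B23, CYP71B34, CYP71B37 and CYP78A9) replicate 2 differed from replicate 1 in the same direction in both genotypes. The share over all tested probe sets was not computed, so nothing is read from this number. CYP71B23 fell by 0.90 on the log2 scale from wild type replicate 1 to 2, and by 0.26 between the sol2 arrays.

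**Figure D4:**
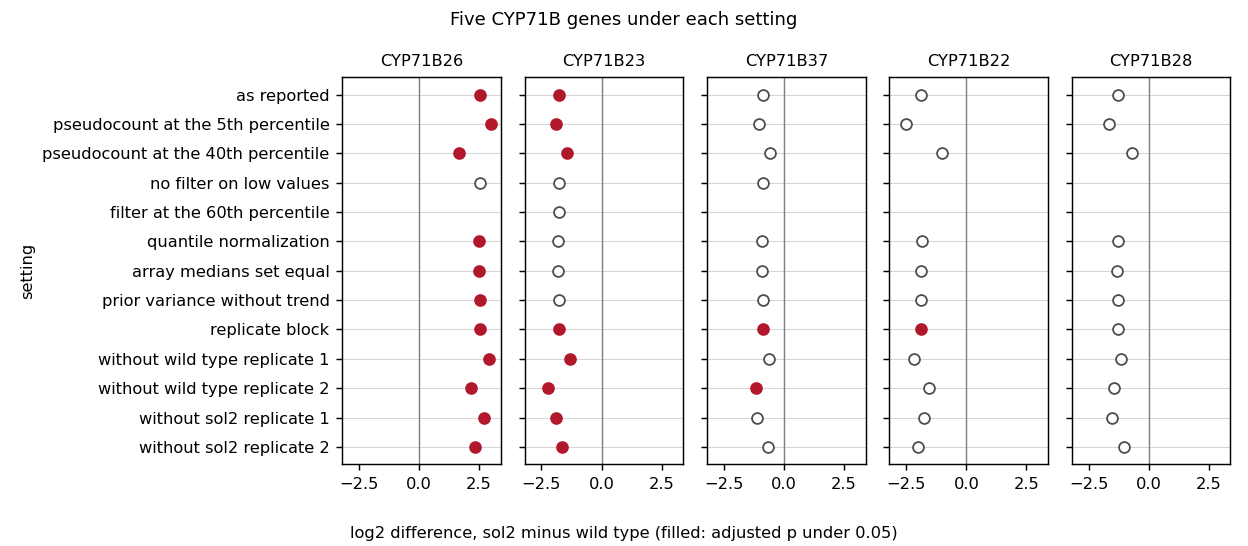
Log2 difference between sol2 and wild type for CYP71B26, CYP71B23, CYP71B37, CYP71B22 and CYP71B28 under each processing setting, with filled circles where the adjusted p was under 0.05. Where an array was left out, the lone array of a genotype took its spread from the other genotype. In those settings only the position of a circle is read, not its fill. The values of CYP71B22 and CYP71B28 come from fits without a filter throughout; each gene kept its direction in every setting drawn, while the call of CYP71B23 ended in 5 of them and that of CYP71B26 in 1, besides the 60th-percentile filter, where it was not tested.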

How the data were processed

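The deposited file holds 1 intensity per probe set and array on a linear scale. Per the submitters' processing notes it was made with GCOS; the algorithm and its scaling target are not given in the sources used here. Trimmed means (96% of probe sets kept) of 500.05 to 500.06 show that the authors had scaled the arrays, and no further normalization was applied. With 2 arrays per genotype, their number limits the precision. Genes were named from the platform annotation and RefSeq's gene table. That annotation gives no gene for 8730 of the 22746 probe sets other than controls. Whether any of these measures a gene described here as having no named probe set was not examined.

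Of 22746 probe sets other than controls, 13648 reached the 40th percentile of the mean of log2(signal + 18.4) and entered a two-sided limma fit (lmFit, then eBayes with trend; limma 3.58.1, R 4.3.3) that had genotype as its only term. The pseudocount 18.4 was the 20th percentile of all signals, and on this scale the changes of dim genes are understated. Genes below the filter took values from the same fit without it. Where an array of the lower group lay within the bacterial control range, the ratio of means was given as a bound, with signals under 34.1 set to 34.1. Such a bound allows for signals near the floor and not for the spread between arrays. Figures were drawn with matplotlib 3.10.9 in Python 3.11.15.

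The genes and lists were chosen with earlier results of these data known. The text names called genes, the 10 largest rises and falls among tested genes, the 10 genes of highest mean signal, tested genes of the role lists, neighbours of called genes, and of each other list the 2 largest changes; genes below the filter that are given for completeness of the family were named outside this rule. The words CHI and FMO GS-OX1 were taken out of the lists after the values were seen, since the first matched a chitinase gene and the second had been split. Alternatives covered pseudocount, filter, normalization, prior variance, replicate block, threshold and each array left out.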

Additional observations from a re-analysis of the deposited data

How the results depend on the processing

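The count of P450 genes called higher, 1, was 0 without a filter and with the 60th-percentile filter, where CYP71B26 was no longer tested. The count called lower, 1, was 0 in those settings and with quantile normalization, equal array medians and a prior variance without trend, and 2 with a replicate block. Whether equal replicate numbers mark a shared batch is not stated; across probe sets, replicate 2 minus replicate 1 in wild type correlated with that in sol2 at 0.441. With arrays left out in turn the counts were 1 higher and 1 to 2 lower, 2 without wild type replicate 2; the lone array of a genotype then took its spread from the other genotype. Adding CYP718 changed neither count, and each gene had 1 probe set. CYP71B26 had an adjusted p of 0.0742 without a filter, and its log2 difference was 1.65 with the 40th-percentile pseudocount. The median log2 difference of the tested P450 genes was -0.92 with the 60th-percentile filter, which left 2 of them, and -0.31 to 0.19 with arrays left out, lowest without wild type replicate 2. For all probe sets, 129 higher and 41 lower became 60 and 9 without a filter, 68 and 15 with the 60th-percentile filter, 660 and 462 with the replicate block and 199 and 78 at an adjusted p under 0.10. With arrays left out they were 107 to 876 higher and 46 to 549 lower, 425 and 144 without wild type replicate 1 and highest without wild type replicate 2. A filter alters how many probe sets enter the adjustment; the cause of the other changes was not tested.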

Other observations

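Probe sets outside the rule carried other P450 genes. The probe set shared by CYP71B19 and CYP71B20, which lie next to each other in the chromosome 3 stretch, had signals of 4.9 and 3 in wild type against 1.2 and 1.3 in sol2, all within the range of the bacterial controls. The probe set shared by CYP79C2 and AT1G58265 had 28.3 and 2.6 in wild type against 16.5 and 5.3 in sol2, also within that range. CYP718, whose symbol has no subfamily letter, had 180.1 and 96.7 in wild type against 93.7 and 66.1 in sol2, so that both sol2 arrays were lower, and it was not called by limma.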
